A study of Mus musculus with 12 samples.

Results

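Forkhead transcription factors were followed across mouse cells that carry the labels induced neural stem cell, neural stem cell and embryonic fibroblast. The members are the probe sets to which the authors' table assigns exactly 1 gene symbol beginning with Fox and running from the a to the s subfamily. There were 46 such probe sets among 18403 with a single symbol, and among 28815 probe sets in the value table. They carry 43 symbols, and 44 of the 46 belong to 41 protein-coding forkhead genes, of which 3 (Foxf1, Foxn3 and Foxo3) have a pair of probe sets each. The remaining 2 are not forkhead proteins. Foxl2os is a long noncoding RNA antisense to Foxl2, and the probe set listed as "Foxo3" on chromosome 14 carries the Entrez identifier of Tppp2. The true Foxo3 gene is listed in the file under its older symbol Foxo3a, and Foxf1 under Foxf1a. Foxm1 shares its probe set with another gene in the table, so it is no member and is described apart.

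Forkhead (FOX) proteins bind DNA through a winged-helix domain and are grouped into subfamilies by the sequence of that domain. FOXC, FOXF, FOXL and FOXS proteins act mainly in mesoderm and connective tissue, and FOXD1 in renal stroma, retina and diencephalon. FOXO proteins restrain growth and are sent out of the nucleus when insulin and growth factors activate AKT. FOXP proteins are mostly repressors that work as dimers, FOXA proteins open chromatin in endoderm and floor plate, FOXJ1 switches on motile cilium genes, and FOXM1 drives genes of mitosis.

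The data come from 12 Affymetrix Mouse Gene 1.0 ST arrays, which form 4 groups of 3, here iNSC1, iNSC2, NSC and MEF. The NSC and MEF cells were wild type. Every iNSC and NSC culture grew in a basal medium that held EGF and FGF-2 at 20 ng/ml each together with heparin (2 µg/ml), whereas MEF grew in DMEM with 10% FBS, so medium and cell label cannot be told apart in any comparison with MEF. The labels used here give no strain, age, passage or factor used for induction. They also leave unstated how the iNSC1 and iNSC2 sets differ and whether arrays of a set are separate cultures, so p-values measure the spread between these arrays. All values are log2 values on the scale the authors deposited, with array medians between 4.31 and 4.44. There is no detection call on these arrays: a low value may be background, and levels are compared only within a probe set.

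The labels were only partly borne out by cell type markers. All 10 fibroblast markers were lower in NSC than in MEF arrays and all 10 were lower in iNSC than in MEF arrays, with list means of 9.44 to 9.70 in MEF and 4.73 to 4.97 elsewhere. Of 10 neural stem cell markers, 3 (Pax6, Sox1 and Olig2) were higher in NSC than in MEF, and limma called 0 of the 10 between iNSC and MEF (6 at an unadjusted p under 0.05), with Benjamini-Hochberg adjustment at adjusted p under 0.05 and at least 2-fold. Sox2 read 4.56, 4.42, 4.58 and 4.50 in iNSC1, iNSC2, NSC and MEF arrays (means, n = 3 each). The pluripotency gene Pou5f1 read 12.98, 13.01 and 12.89 in iNSC1, iNSC2 and NSC and 3.55 in MEF. Of 8 pluripotency markers measured, 6 were higher in iNSC and 4 in NSC than in MEF and 0 were called lower. Directly compared, Utf1 (3.19) and Gdf3 (3.93) were higher in iNSC than in NSC and Nr0b1 (-4.44) was lower. Macrophage markers averaged 6.85 to 7.13 in MEF arrays, 4.46 to 4.51 in NSC arrays and 3.97 to 4.21 in iNSC arrays. Between iNSC and NSC, 2 of these 10 were called lower in iNSC, Laptm5 (-3.72) and Cd68 (-1.07), and 0 higher. Laptm5 also read higher in NSC (9.57) than in MEF (8.20). In such bulk samples, fewer cells of a type and less RNA per cell cannot be told apart. The words iNSC and NSC below are the labels' names.

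Between NSC and MEF arrays, Foxd1 and Foxo4 were higher in NSC by over 4 log2 units. The mesenchymal factors Foxc2, Foxc1, Foxf2 and Foxs1 were lower, as was Foxf1, by at least 2-fold in only 1 of its 2 probe sets. A probe set was called at a limma adjusted p under 0.05, Benjamini-Hochberg over all 18403, and a change of at least 2-fold. By that rule 2 of 46 members were higher and 6 lower in NSC, against 9.42% higher and 9.65% lower among all probe sets tested. Between iNSC (the mean of both iNSC groups) and MEF, 2 members were higher and 5 lower, against 8.26% and 10.7% of all. Between iNSC and NSC, 2 were higher and 2 lower, against 2.76% and 3.90%. Between iNSC1 and iNSC2, 0 of 46 were called by limma, against 0.141% of all in either direction, and 4 members had an unadjusted p under 0.05, against 11.2% of all.

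In the 3 comparisons between cell labels, the median member moved less than the median probe set. The median absolute difference over members was 0.16 for NSC minus MEF, against 0.33 over all probe sets tested. For iNSC minus MEF it was 0.19 against 0.33, and for iNSC minus NSC 0.14 against 0.19. Between iNSC1 and iNSC2 it was 0.114 against 0.106. Signed medians in the first 3 were 0.00, 0.06 and 0.05. The comparisons share arrays and are not independent of each other. In all, 9 members, each from a different gene, were called in any of the 4 comparisons, and 8 of them are described and plotted array by array here. The share of all probe sets called in any of the 4 was not computed, and the shares per comparison are given above.

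**Figure D1:**
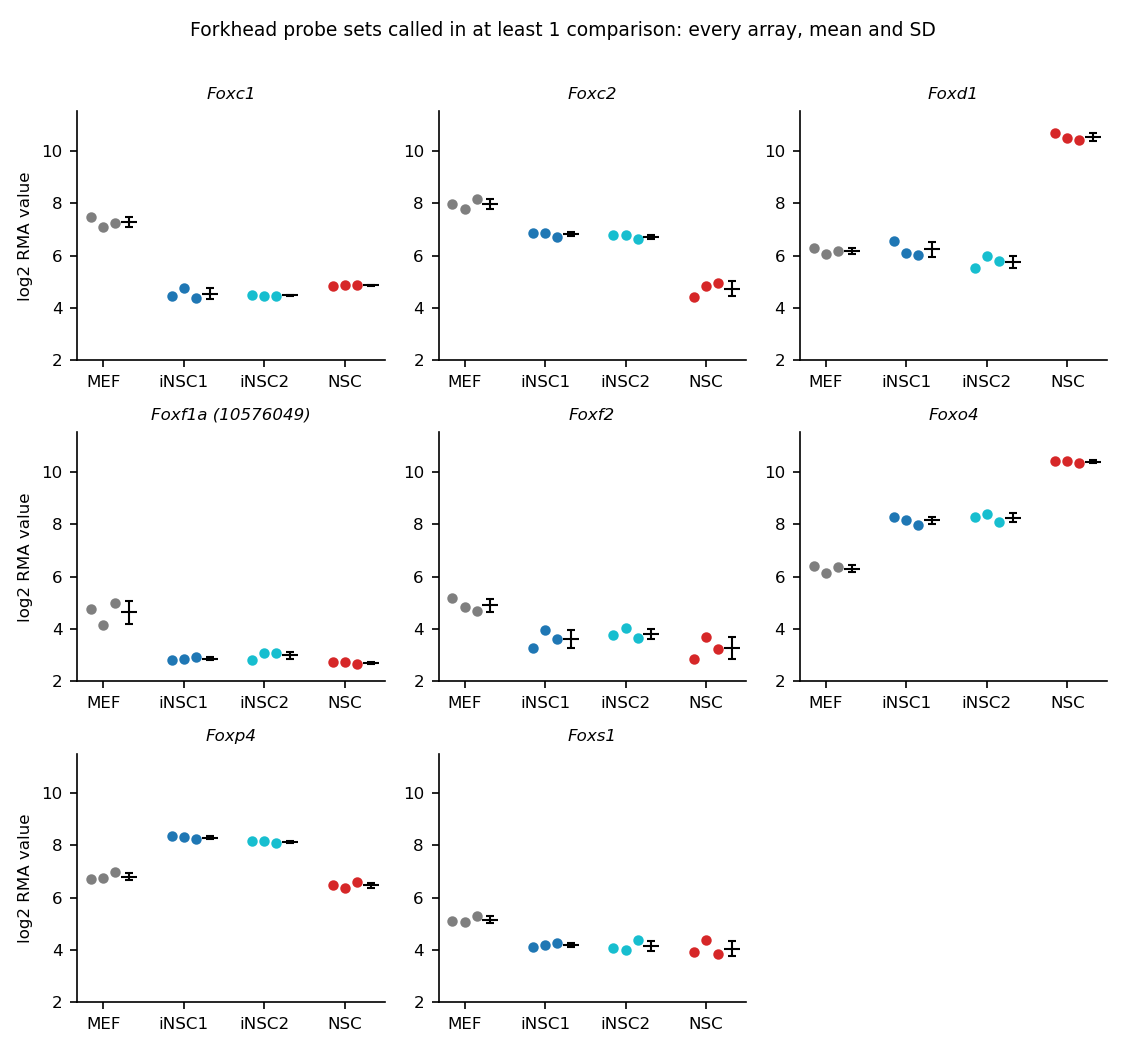
Log2 RMA value (vertical axis) of 8 of the 9 forkhead probe sets called in at least 1 comparison, in each of the 12 arrays, by group (MEF, iNSC1, iNSC2, NSC; n = 3 each). Points are arrays, and the bar with whiskers is the group mean and SD. Foxd1 stands at 10.42 to 10.69 in NSC arrays alone, Foxo4 is lowest in MEF and highest in NSC, and Foxc2 is lowest in NSC, at 4.42 to 4.96.

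Foxc1, needed for somites, skull and eye mesenchyme, was high in fibroblasts alone. Its probe set (chromosome 13, 31898515 to 31902504, plus strand, in the authors' coordinates, for which the sources used here name no genome build) read 7.47, 7.09 and 7.24 in MEF replicates 1, 3 and 5. It read 4.46, 4.77 and 4.38 in iNSC1, 4.50, 4.47 and 4.47 in iNSC2, and 4.84, 4.90 and 4.87 in NSC. Every MEF array thus lay more than 2 units above every other array. The difference from MEF was -2.76 ± 0.11 (SE) in iNSC, a 6.76-fold reduction (limma adjusted p = 6.72e-13), and -2.40 ± 0.12 in NSC (adjusted p = 4.14e-11). Between iNSC and NSC it differed by -0.36, under the 2-fold bound (adjusted p = 0.0136), and again without overlap of arrays.

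Foxc2, the close relative of Foxc1 that also shapes lymphatic vessels and valves, followed another pattern. The probe set (chromosome 8, 123640071 to 123642795, plus strand) read 7.95, 7.78 and 8.17 in MEF. In iNSC1 it read 6.86, 6.86 and 6.72, and in iNSC2 6.77, 6.77 and 6.63. NSC arrays stood lowest, at 4.42, 4.83 and 4.96, so the iNSC arrays lay between MEF and NSC and overlapped neither. The difference from MEF was -1.20 ± 0.11 in iNSC, a 2.30-fold reduction (adjusted p = 9.16e-08), and -3.24 ± 0.13 in NSC, a 9.42-fold reduction (adjusted p = 2.34e-12). Directly compared, iNSC exceeded NSC by 2.04 ± 0.11, or 4.10-fold (adjusted p = 3.22e-10).

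The FOXF pair, which acts in the mesenchyme around gut and lung, was lower outside MEF. Foxf2 (chromosome 13, 31717648 to 31723271, plus strand) averaged 4.91 ± 0.25 (SD, n = 3) in MEF, 3.61 ± 0.35 in iNSC1, 3.82 ± 0.19 in iNSC2 and 3.27 ± 0.43 in NSC. Its difference from MEF was -1.20 ± 0.18 in iNSC (adjusted p = 2.09e-05) and -1.64 ± 0.21 in NSC (adjusted p = 3.55e-06). These readings are low on the array's scale, and how far background enters them was not tested. Foxf1 has 2 probe sets, which agree in direction and not in size. One of them (10576046, chromosome 8, 123608309 to 123610779) averaged 6.72 in MEF and 6.05 to 6.26 elsewhere, and its difference from MEF of -0.56 in iNSC and -0.57 in NSC stayed under 2-fold (adjusted p = 0.000384 and 0.00128). The other (10576049, 123610866 to 123612009, just downstream) averaged 4.63 ± 0.44 in MEF and 2.71 to 3.00 elsewhere. It was called in both comparisons, at -1.70 ± 0.14 in iNSC (adjusted p = 2.08e-08) and -1.92 ± 0.17 in NSC (adjusted p = 3.63e-08). A probe set was tested only if a group mean exceeded 3, and here only the MEF mean did. This call is therefore not used as support for lower Foxf1 outside MEF. How far background enters the other readings was not tested.

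Foxs1, found in pericytes and early derivatives of the neural crest, lay at the fold bound. It averaged 5.16 ± 0.13 in MEF, 4.19 ± 0.086 in iNSC1, 4.15 ± 0.20 in iNSC2 and 4.04 ± 0.28 in NSC. NSC minus MEF was -1.12 ± 0.15 and called (adjusted p = 4.88e-06), while iNSC minus MEF was -0.99 ± 0.13 and not called despite an adjusted p of 3.2e-06. The latter passed 2-fold without iNSC1 replicate 3 (-1.01), iNSC2 replicate 3 (-1.04), MEF replicate 1 (-1.01) or MEF replicate 3 (-1.04). Fibroblast markers moved the same way as these mesenchymal factors in both comparisons with MEF, and macrophage markers did too (8 of 10 called lower in iNSC, and 6 lower with 1 higher in NSC). Their part in the result was not tested. Fibroblast list means were 4.82 to 4.97 in iNSC arrays and 4.73 to 4.83 in NSC arrays.

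Several of these genes are neighbours, so their promoters and positions are shown together. On chromosome 13, Foxq1, Foxf2 and Foxc1 lie in that order within 252.2 kb, and on chromosome 8 Foxf1, Foxc2 and Foxl1 lie within 44.6 kb, in the authors' coordinates. RefSeq promoter windows of 250 bases before the start (GRCm38.p6) were matched for 28 of the 43 member symbols and for 4 of the 9 called genes. The 2 windows of the chromosome 13 neighbours that were lower outside MEF are chr13:31806396-31806645 for Foxc1 and chr13:31625566-31625815 for Foxf2, both on the plus strand and 180.6 kb apart. Both are printed 5′ to 3′. Capitals mark a GC box (GGGCGG or its reverse complement CCGCCC) or a CCAAT box (CCAAT or its reverse complement ATTGG).
Foxc1: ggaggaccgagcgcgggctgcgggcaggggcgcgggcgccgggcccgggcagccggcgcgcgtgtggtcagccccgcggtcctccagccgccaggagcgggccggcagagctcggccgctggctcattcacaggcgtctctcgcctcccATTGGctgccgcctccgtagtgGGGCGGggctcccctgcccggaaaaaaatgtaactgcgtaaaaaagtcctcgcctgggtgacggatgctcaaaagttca
Foxf2: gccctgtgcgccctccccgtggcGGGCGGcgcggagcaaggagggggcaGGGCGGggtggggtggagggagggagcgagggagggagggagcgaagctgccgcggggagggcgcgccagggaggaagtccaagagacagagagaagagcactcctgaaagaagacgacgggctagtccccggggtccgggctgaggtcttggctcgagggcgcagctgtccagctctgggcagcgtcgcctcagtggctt
The Foxc1 window holds 1 GC box and 1 CCAAT box, and the Foxf2 window 2 GC boxes. Their GC content was 70.8% and 71.6%, against a median of 52.4% over all 32851 windows and 62.0% over the 33 windows of member genes. GC boxes occurred in 22 of the 33 member windows (66.7%) and in 32.7% of all, and CCAAT boxes in 14 (42.4%) and in 33.8% of all. The forkhead motif TGTTTAC or GTAAACA stood in 1 of 33 member windows and in 3.2% of all, and TATAAA or TTTATA in 3 of 33 and in 12.4% of all. The octamer ATGCAAAT or ATTTGCAT stood in 0 of 33 and in 1.6% of all. No motif overlapped another in the windows printed here, and a match is a description of letters only.

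Probe sets of neighbours did not share 1 pattern of readings. Foxq1, expressed in stomach and hair shaft, read between 4.82 and 5.19 in all 12 arrays and was called in no comparison, although its neighbours Foxf2 and Foxc1 were both lower outside MEF. How far background enters the Foxq1 readings was not tested, so they need not show how the gene itself behaves. On chromosome 8, the Foxf1 probe set 10576049 and Foxc2 next to it were both called lower than MEF in iNSC (-1.70 and -1.20) and in NSC (-1.92 and -3.24). The Foxf1 probe set entered the test only through its MEF mean. Foxc2 differed by 2.04 between iNSC and NSC, and this Foxf1 probe set by 0.22 (limma adjusted p = 0.267). Foxl1, a factor of the mesenchyme beneath the gut lining, averaged 4.43, 4.28, 4.11 and 4.55 in iNSC1, iNSC2, NSC and MEF. Its NSC minus MEF difference of -0.44 had an adjusted p of 0.0231 and was under 2-fold.

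**Figure D2:**
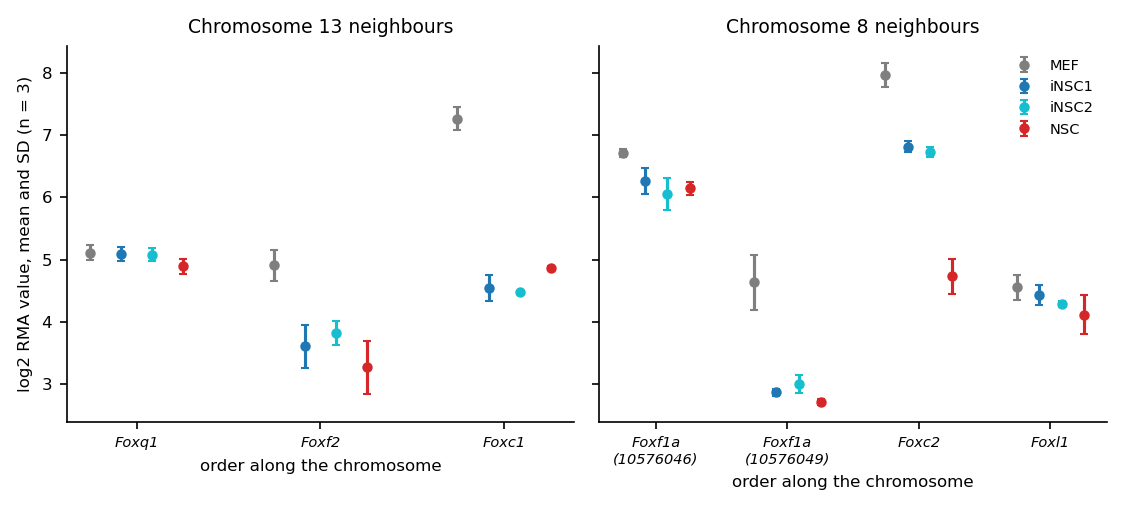
Log2 RMA value (vertical axis; mean and SD of 3 arrays) of neighbouring forkhead genes in their order along chromosome 13 (left) and chromosome 8 (right), for MEF, iNSC1, iNSC2 and NSC arrays. Foxq1 is level across groups, Foxf2 and Foxc1 are highest in MEF, and Foxc2 in iNSC arrays (means 6.81 and 6.73) lies between MEF (7.97) and NSC (4.73).

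Foxd1 marked the NSC arrays. This factor patterns the temporal retina and the diencephalon and acts in the stroma of the kidney. Its probe set (chromosome 13, 99124210 to 99126647, plus strand) read 10.69, 10.48 and 10.42 in NSC. In iNSC1 it read 6.57, 6.12 and 6.02, in iNSC2 5.52, 5.99 and 5.80, and in MEF 6.28, 6.05 and 6.17. The NSC arrays were thus more than 3 units above all other arrays. The iNSC1 arrays overlapped MEF, and the iNSC2 arrays lay just below every MEF array. NSC minus MEF was 4.36 ± 0.14, a 20.57-fold excess (adjusted p = 1.28e-13), and iNSC minus NSC was -4.53 ± 0.12, 23.05-fold lower in iNSC (adjusted p = 4.42e-14). iNSC minus MEF was -0.16 ± 0.12 with a 95% interval of -0.43 to 0.10 (adjusted p = 0.278). Set against MEF alone, iNSC2 differed by -0.40 ± 0.14 (limma adjusted p = 0.027), under 2-fold, and iNSC1 by 0.07 ± 0.14 (adjusted p = 0.715). Among all members Foxd1 also had the largest difference between iNSC1 and iNSC2, 0.47 ± 0.14, which missed the threshold (adjusted p = 0.132). The promoter window of this most changed member, chr13:98353995-98354244 on the plus strand (GRCm38.p6), holds 1 CCAAT box and 1 GC box, in capitals, at a GC content of 57.2%.
Foxd1: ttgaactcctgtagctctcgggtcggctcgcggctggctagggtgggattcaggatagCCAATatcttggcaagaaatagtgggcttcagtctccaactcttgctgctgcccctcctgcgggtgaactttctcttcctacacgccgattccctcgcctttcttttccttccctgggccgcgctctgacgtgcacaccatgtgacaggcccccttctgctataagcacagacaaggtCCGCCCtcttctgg

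Foxo4, an AKT-controlled FOXO factor encoded on the X chromosome, formed 3 separate levels. Its probe set (98449867 to 98455025, plus strand) read 6.41, 6.15 and 6.37 in MEF. It read 8.28, 8.16 and 7.99 in iNSC1 and 8.29, 8.39 and 8.09 in iNSC2. NSC arrays read 10.43, 10.40 and 10.34, so no array of MEF, iNSC or NSC overlapped another of these groups, whereas iNSC1 and iNSC2 overlapped. The difference from MEF was 1.89 ± 0.087 in iNSC (3.71-fold, adjusted p = 6.93e-12) and 4.08 ± 0.10 in NSC (16.92-fold, adjusted p = 4.63e-15). iNSC stood below NSC by a difference of -2.19 ± 0.087 (4.56-fold, adjusted p = 4e-12).

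The other FOXO genes moved less. Foxo3, tied to quiescence and survival of stem cells, has 2 probe sets on chromosome 10, both lowest in iNSC arrays. One (10368886) averaged 8.18 in MEF, 7.89 in NSC, 7.38 in iNSC2 and 7.02 in iNSC1, and the other (10368888) 7.55, 7.44, 6.96 and 6.94 in that order. iNSC minus MEF was -0.98 ± 0.11 and -0.60 ± 0.069 (adjusted p = 4e-07 and 9.05e-07), and iNSC minus NSC was -0.70 and -0.49 (adjusted p = 5.12e-05 and 2.42e-05), each under 2-fold. The former passed 2-fold against MEF without iNSC1 replicate 3 (-1.02), iNSC2 replicate 1 (-1.04) or MEF replicate 5 (-1.05), and it was called when iNSC1 alone was set against MEF (-1.16 ± 0.12, adjusted p = 3.47e-07). NSC minus MEF did not pass for either (adjusted p = 0.061 and 0.271), but for the former (-0.29) it passed under 6 alternatives. Among these were leaving out NSC replicate 1 (-0.38, adjusted p = 0.0245) and leaving out MEF replicate 5 (-0.35, adjusted p = 0.0301). Foxo1 averaged 5.79 to 6.10 in the 4 groups and passed in none of the 4 comparisons. Its iNSC minus NSC difference of -0.22 (limma adjusted p = 0.0709) passed on adjusted p without NSC replicate 3 (-0.30, adjusted p = 0.0283). It also passed among probe sets with a group mean of at least 6 (adjusted p = 0.0422). Set against NSC alone, iNSC1 differed by -0.31 (adjusted p = 0.0293) and iNSC2 by -0.13 (adjusted p = 0.427). Foxo4 and Foxo3 thus differed in direction in iNSC minus MEF and had the same direction in iNSC minus NSC.

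Foxp4, a repressor active in airway epithelium and in neural progenitors, was high in iNSC arrays alone. Its probe set (chromosome 17, 48004082 to 48061581, minus strand) read 8.34, 8.30 and 8.23 in iNSC1 and 8.15, 8.16 and 8.08 in iNSC2. It read 6.46, 6.38 and 6.58 in NSC and 6.71, 6.73 and 6.97 in MEF. Every iNSC array lay above every NSC and MEF array. The iNSC mean exceeded MEF by 1.40 ± 0.078 (2.65-fold, adjusted p = 8.65e-11) and NSC by 1.73 ± 0.078 (3.32-fold, adjusted p = 2.13e-11). NSC lay slightly below MEF, at -0.33 ± 0.091 (adjusted p = 0.00562), under 2-fold. Some markers of epithelium and neurons were also higher in iNSC arrays, and others were level or lower. By limma, Epcam and Syt1 were lower in iNSC than in NSC (-0.38 and -0.42, adjusted p = 0.00868 and 0.0289). Gap43 was lower in iNSC than in MEF (-0.71, adjusted p = 7.01e-05), and each of these stayed under 2-fold. Of 10 epithelial markers, 4 were higher in iNSC than in MEF (Krt8, Krt19, Krt14 and Elf3) and 3 than in NSC (Krt8, Krt19 and Krt14), with list means of 5.25 to 5.54 in iNSC, 4.78 to 4.85 in NSC and 4.40 to 4.43 in MEF arrays. Of 8 measured neuronal markers, 2 were higher in iNSC than in MEF (Map2 and Stmn2) and 4 than in NSC (Tubb3, Map2, Stmn2 and Gap43), with list means of 5.76 to 5.84, 4.88 to 5.07 and 4.71 to 4.85. Their part in the Foxp4 values was not tested. The promoter window of Foxp4, the 1 member called higher in iNSC in both comparisons at the 2-fold minimum, chr17:47924633-47924882 on the minus strand (GRCm38.p6), has 2 GC boxes, in capitals and read as CCGCCC, no CCAAT box, and a GC content of 69.6%.
Foxp4: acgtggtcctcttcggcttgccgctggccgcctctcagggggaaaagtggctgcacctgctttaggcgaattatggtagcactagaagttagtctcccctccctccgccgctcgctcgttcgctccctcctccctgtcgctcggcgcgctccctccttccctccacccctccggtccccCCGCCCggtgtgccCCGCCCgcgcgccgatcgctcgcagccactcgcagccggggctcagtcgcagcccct

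Other broadly read members shifted by less than 2-fold. Foxp1, a partner of FOXP4, was higher outside MEF, by 0.83 ± 0.088 in iNSC (adjusted p = 3.1e-07) and 0.66 ± 0.10 in NSC (adjusted p = 3.01e-05). Foxk1, which with FOXK2 represses autophagy genes and favours glycolysis, rose by 0.64 ± 0.089 in iNSC (adjusted p = 8.4e-06) and 0.65 ± 0.10 in NSC (adjusted p = 3.72e-05). Foxk2 was higher in iNSC than in MEF by 0.27 (adjusted p = 0.00648) and than in NSC by 0.27 (adjusted p = 0.00946). Group means of Foxj2, in the order iNSC1, iNSC2, NSC and MEF, were 6.88, 6.73, 6.67 and 7.02. Foxe1, the thyroid factor, averaged 6.22 to 6.30, and Foxl2, the ovarian granulosa cell factor, 5.96 to 6.28. With no fold minimum, 8 members were higher and 10 lower in iNSC than in MEF, against 29.7% and 26.4% of all probe sets. In NSC against MEF these counts were 6 and 10, against 28.9% and 23.3%, and in iNSC against NSC 4 and 5, against 15.9% and 19.9%.

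Many forkhead genes known for other lineages were not called. Of the 37 uncalled members, 27 had no group mean of 6 or more. In 22 of these 27, none of the 4 main comparisons reached an adjusted p under 0.05, readings ran from 2.68 to 6.17, and group means spanned at most 0.32. The shares of all probe sets under these rules were not computed. The counts thus do not show that members were more level than other probe sets. The 22 include Foxj1 of multiciliated and ependymal cells, whose NSC minus MEF interval was -0.25 to 0.25, and the endoderm factors Foxa1 and Foxa2. With iNSC1 alone set against MEF, 2 of the 22 had an adjusted p under 0.05 and stayed under 2-fold, Foxa2 at 0.31 (adjusted p = 0.0423) and Foxo6 at 0.30 (adjusted p = 0.0491). Of the other 6 ependymal markers measured, limma called 0 in NSC and 0 in iNSC against MEF, with 2 and 1 at an unadjusted p under 0.05. Foxd3, a factor of the early embryo and neural crest, differed between NSC and MEF by 0.09, with an interval of -0.15 to 0.32. Foxh1, which carries Nodal signals, averaged 4.05 to 4.15. The other 5 of the 27 (Foxa3, Foxb2, Foxl1, Foxn2 and 1 Foxn3 probe set) passed on adjusted p in at least 1 comparison, with group means spanning at most 0.63. Foxl2os and the Tppp2 probe set listed as "Foxo3" were among the 22. These members were named for their known roles after their values were seen.

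**Figure D3:**
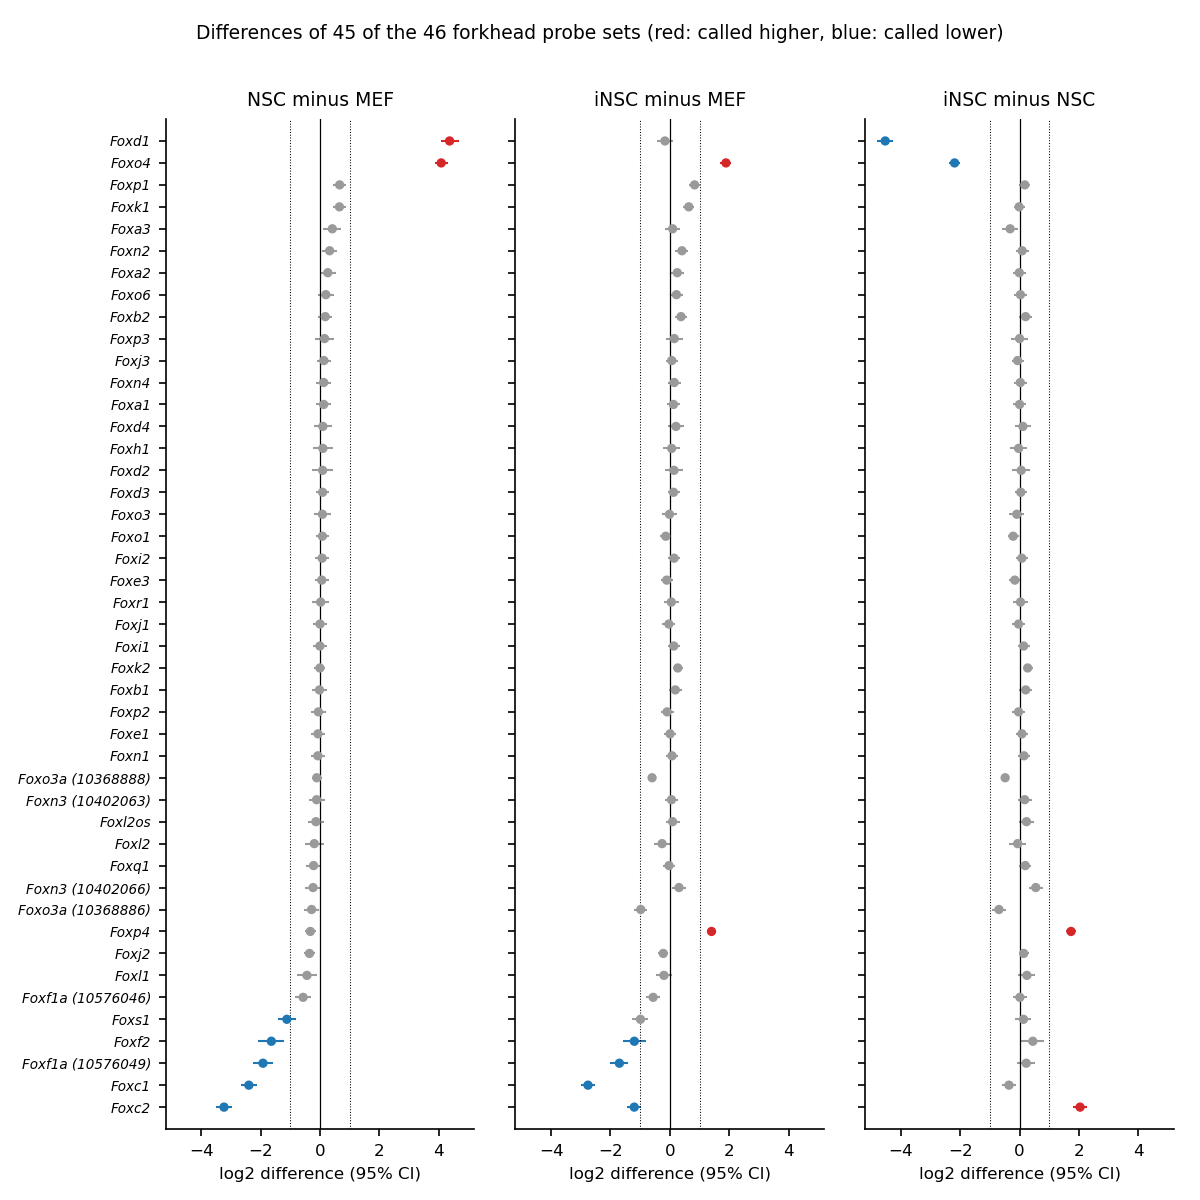
Log2 difference with its 95% interval (horizontal axis) for 45 of the 46 forkhead probe sets, for NSC minus MEF, iNSC minus MEF and iNSC minus NSC. Red marks members called higher, blue members called lower, and dotted lines the 2-fold bound. Foxd1 is at 4.36, -0.16 and -4.53 in the 3 panels, Foxo4 at 4.08, 1.89 and -2.19, and most other members lie inside the dotted lines.

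The 2 iNSC groups were close to each other over these genes. Against MEF, each was called higher for 2 members and lower for 6 (iNSC1: 8.56% and 10.9% of all; iNSC2: 8.24% and 10.5%). The sixth lower member was a Foxo3 probe set in iNSC1 (-1.16) and Foxs1 in iNSC2 (-1.01, adjusted p = 1.52e-05). Against NSC, each had 2 higher and 2 lower (iNSC1: 2.74% and 4.14% of all; iNSC2: 2.94% and 3.80%), which were Foxc2, Foxp4, Foxd1 and Foxo4 for both. Foxd1 was -4.29 ± 0.14 and -4.76 ± 0.14 below NSC in iNSC1 and iNSC2. The 4 members with an unadjusted p under 0.05 between the groups were Foxd1, Foxo3 (10368886, -0.36), Foxp1 (-0.27) and Foxn4 (0.26), with adjusted p from 0.132 to 0.417.

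Taken as a profile over the 46 members, iNSC arrays lay nearer to MEF than to NSC. The root mean square log2 distance between arrays was 0.77 ± 0.032 (SD over 18 array pairs) for iNSC and MEF, 0.89 ± 0.049 for iNSC and NSC (18 pairs), and 1.19 ± 0.044 for NSC and MEF (9 pairs). It was 0.23 between iNSC1 and iNSC2 and 0.21 to 0.23 within groups. Over all probe sets the order was the reverse, with 1.02 for iNSC and MEF and 0.63 for iNSC and NSC. Leaving out Foxd1 and Foxo4, a choice made after seeing the data, gave 0.73 for iNSC and MEF and 0.50 for iNSC and NSC, so the order over members rests on those 2 probe sets. Array pairs share arrays, and no test was made on these distances.

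**Figure D4:**
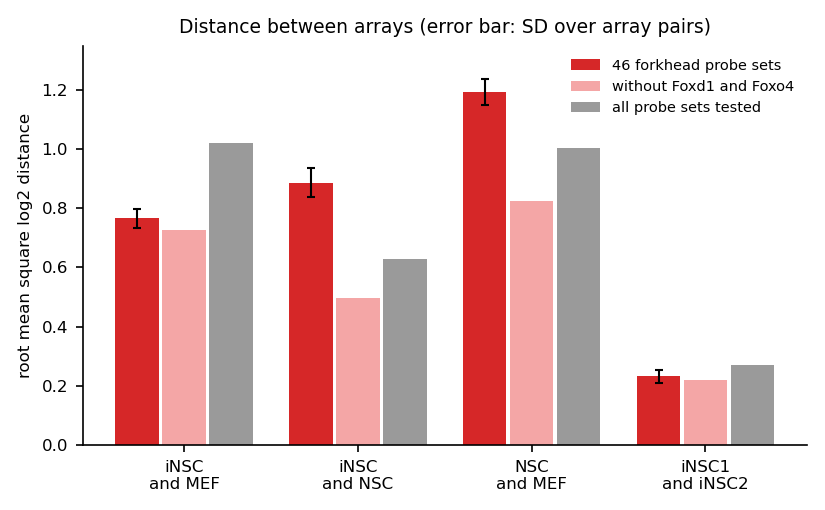
Root mean square log2 distance (vertical axis) between arrays of 2 groups, over the 46 forkhead probe sets (red, with the SD over array pairs), without Foxd1 and Foxo4 (pink) and over all probe sets tested (grey). iNSC is nearer to MEF (0.77) than to NSC (0.89) over the members and nearer to NSC in the other bars.

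Foxm1, the mitotic forkhead factor, shares its probe set (chromosome 6) with the gene 4933413G19Rik, and signal of the 2 genes cannot be told apart. The probe set read 5.19, 5.31 and 5.51 in MEF and averaged 7.07 ± 0.097 in iNSC1, 7.21 ± 0.035 in iNSC2 and 7.35 ± 0.047 in NSC. In the limma fit of the whole value table it was higher than MEF by 1.80 ± 0.085 in iNSC (adjusted p = 2.42e-11) and by 2.02 ± 0.098 in NSC (adjusted p = 5.22e-11). iNSC minus NSC was -0.22 (adjusted p = 0.0793). Of 20 genes listed as FOXM1 targets, 18 were higher and 0 lower in iNSC than in MEF, against 8.26% and 10.7% of all probe sets. Their median difference was 2.17 against 0.06 for all probe sets. In NSC against MEF 17 were higher and 0 lower, against 9.42% and 9.65% of all (median 2.31 against 0.05). Between iNSC and NSC limma called 0 (12 at an unadjusted p under 0.05, median -0.12), against 2.76% higher and 3.90% lower. The kinase gene Plk1 was higher by 3.27 ± 0.072 in iNSC and 2.69 ± 0.083 in NSC, and the centromere histone gene Cenpa by 2.89 ± 0.075 and 2.83 ± 0.087. Cyclin Ccnb1 differed by 2.72 ± 0.12 and 2.95 ± 0.14, and the kinase gene Aurka by 2.74 ± 0.072 and 2.19 ± 0.084. The list was chosen with earlier results of these data known, and no link between Foxm1 and these genes was tested.

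Genes of the FOXO pathway were called in both directions. Among 20 genes upstream of FOXO, 1 was higher and 4 lower in iNSC than in MEF, against 8.26% and 10.7% of all probe sets (median -0.02 against 0.06). In NSC 2 were higher and 2 lower than in MEF, about the share among all probe sets of 9.42% and 9.65% (median 0.37 against 0.05). Between iNSC and NSC 0 were higher and 2 lower, against 2.76% and 3.90% (median -0.22 against 0.00). The growth factor-induced kinase gene Sgk1 was lower than in MEF in both, at -3.56 ± 0.11 in iNSC and -3.84 ± 0.13 in NSC, and the insulin receptor substrate gene Irs1 at -2.67 ± 0.13 and -1.51 ± 0.15. Sgk3 was higher than in MEF in both (1.27 ± 0.15 and 1.18 ± 0.17), and Skp2, which marks FOXO1 for degradation, was higher in NSC (1.28 ± 0.098).

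Of 20 genes listed as FOXO targets, 1 was higher and 6 lower in iNSC than in MEF, against 8.26% and 10.7% of all probe sets (median -0.36 against 0.06). In NSC 3 were higher and 5 lower than in MEF, against 9.42% and 9.65% (median -0.33 against 0.05). Between iNSC and NSC 2 were higher and 6 lower, against 2.76% and 3.90% (median -0.27 against 0.00). The cell cycle inhibitor Cdkn1b was higher in NSC than in MEF by 2.23 ± 0.11 and lower in iNSC than in NSC, at -1.53 ± 0.095. Another inhibitor, Cdkn1a, was lower in iNSC than in MEF (-3.06 ± 0.071) and than in NSC (-2.28 ± 0.071). Pdk4, a brake on glucose oxidation, was lower than in MEF in both (-2.66 ± 0.14 and -2.55 ± 0.16). The stress genes Sesn3 (-1.79 ± 0.14) and Txnip (-1.79 ± 0.080) were lower in iNSC than in NSC, and Gadd45b was higher (2.47 ± 0.082). Foxo4 was lower in iNSC than in NSC as well, and no link between the factor and these genes was tested.

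Of mesenchyme genes that work beside FOXC, FOXD, FOXF and FOXL factors, 11 of 20 were lower than in MEF in iNSC and 11 in NSC. Of the 20, 0 were higher and 11 lower in iNSC than in MEF by limma, against 8.26% and 10.7% of all probe sets (median -1.24 against 0.06). In NSC 1 was higher and 11 lower than in MEF, against 9.42% and 9.65% (median -1.12 against 0.05). Between iNSC and NSC limma called 0 (8 at an unadjusted p under 0.05), with a median of 0.00, the same as over all probe sets. The smooth muscle actin gene Acta2 differed from MEF by -8.46 ± 0.14 in iNSC and -7.96 ± 0.16 in NSC. The limb and facial mesenchyme factors Prrx1 (-4.02 ± 0.15 and -3.78 ± 0.18), Prrx2 (-3.90 ± 0.15 and -3.94 ± 0.18) and Twist2 (-3.77 ± 0.11 and -3.95 ± 0.13) followed. Ptch1, the Hedgehog receptor, was the 1 gene of the list that was higher, in NSC (1.77 ± 0.11). Twist2 is also on the fibroblast marker list.

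Few genes of the remaining lists were called. Of 16 measured genes that work with FOXJ1 in motile cilia, limma called only Myb, higher in NSC than in MEF (1.32 ± 0.13), with 6 genes at an unadjusted p under 0.05 in iNSC against MEF and 4 in iNSC against NSC. Of 15 measured genes tied to FOXA factors in endoderm and floor plate, the floor plate factor Lmx1a was higher in iNSC than in MEF (1.34 ± 0.12) and than in NSC (1.40 ± 0.12), and Gata6 was lower than in MEF in iNSC (-1.06 ± 0.12) and NSC (-1.06 ± 0.14). Each such call is 6.67% of the FOXA list. Among all probe sets, 8.26% were called higher and 10.7% lower in iNSC than in MEF, and 9.42% and 9.65% in NSC. Between iNSC and NSC these shares were 2.76% and 3.90%. Between iNSC1 and iNSC2 limma called 0 genes of any of these 6 lists, with 0 to 5 per list at an unadjusted p under 0.05.

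**Figure D5:**
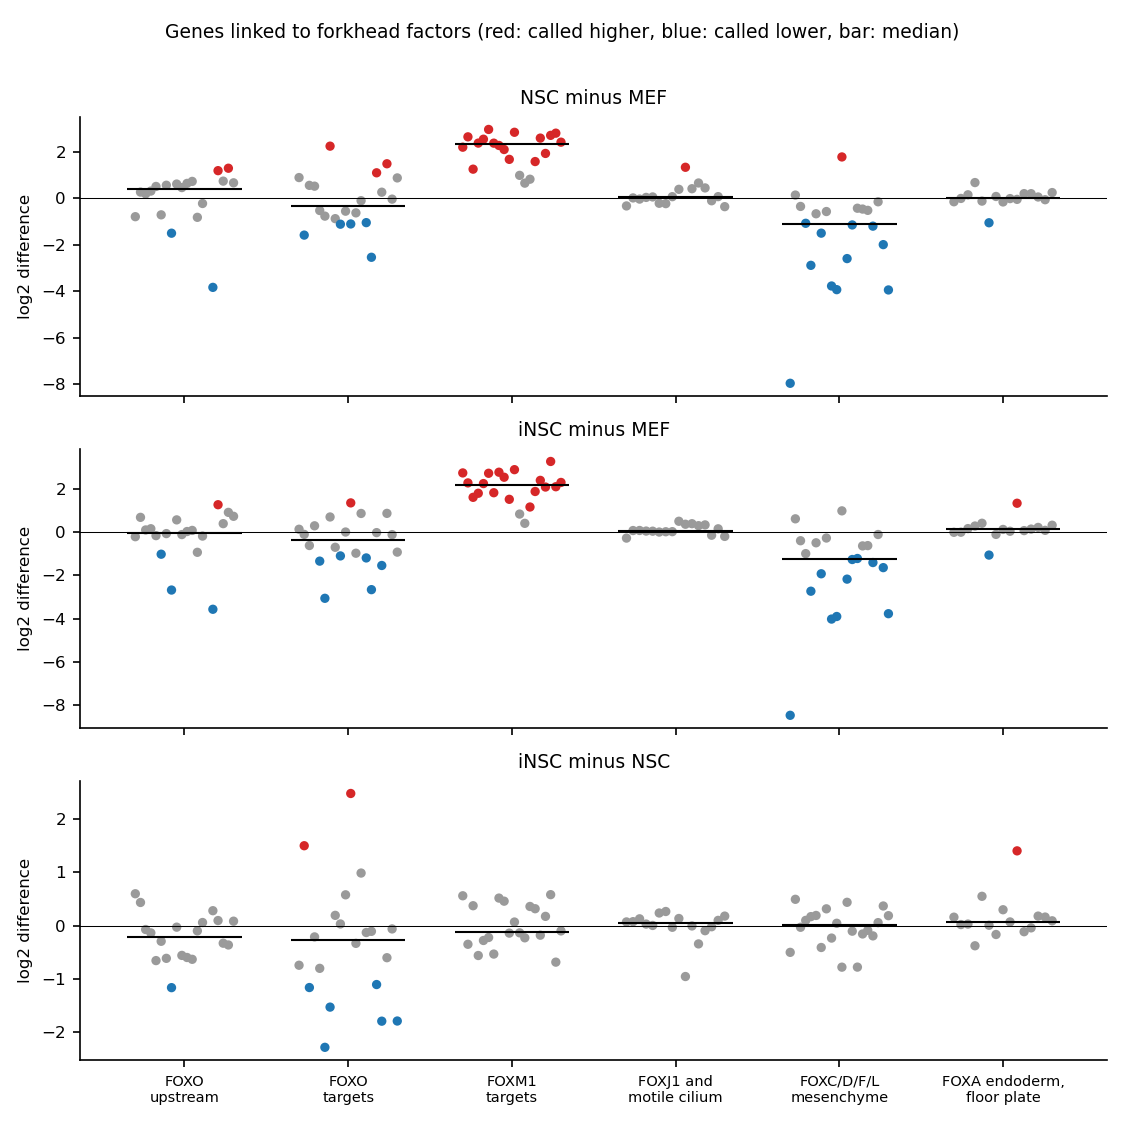
Log2 difference (vertical axis) of each measured gene in 6 lists of genes linked to forkhead factors (1 gene not drawn) (horizontal axis), for NSC minus MEF, iNSC minus MEF and iNSC minus NSC. Points are genes, red if called higher and blue if called lower, and the bar is the list's median. The FOXM1 targets lie above 0 in both comparisons with MEF (medians 2.31 and 2.17) and around 0 between iNSC and NSC, and Acta2 is the point near -8.

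The authors' deposited table gave the same calls at 2-fold, and it rests on the same arrays, so it is no independent check. By its adjusted p under 0.05 and at least 2-fold, the authors' deposited table called 2 members higher and 6 lower in NSC than in MEF, 2 and 5 in iNSC than in MEF, and 2 and 2 in iNSC than in NSC. All 46 members had the same call in it as here, and its log2 ratios differed from the values above by at most 0.0007. At adjusted p alone the results could differ. Foxa3 in iNSC minus NSC had an adjusted p of 0.036 there and 0.0569 by limma here.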

How the data were processed

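Labelled RNA (from 300 ng of total RNA per array) was hybridised to 12 arrays. The deposited log2 values were made by the authors by RMA (background correction, quantile normalisation and probe summary) with Affymetrix Power Tools according to the submitters' processing notes and per the labels; the sources used here give no version, genome build or annotation release. Another table deposited by the authors holds, per the file headers, the same log2 intensities, group ratios and the authors' p-values. It names genes and lists only probe sets whose highest group mean exceeds 3 (lowest listed 3.0003, highest unlisted 2.9998), so 7041 of 28815 were not tested. Of its 12 array columns, 9 matched a title and equalled the value table (largest difference 0); 3 were not used.

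From these, limma 3.58.1 (R 4.3.3) fitted 1 mean per group over all 12 arrays on the 18403 probe sets with 1 symbol, each on its own, with a trended prior (residual degrees of freedom 8, prior 7.9). Tests were two-sided, Benjamini-Hochberg adjusted over all 18403. Differences are on the log2 scale, ± SE. Level comparisons rest on 3 arrays a group, which limits their precision. Entrez identifiers matched 17520 of 18403 probe sets and all 46 members to RefSeq (GRCm38.p6), which also gave the promoter windows. The named members of the closing section are those called in any of the 4 main comparisons, and uncalled ones with a group mean of at least 6. Its alternative values and crossings for named members do not cover the other members that the text mentions. Of each list, up to 4 called genes with the largest change were eligible. The members, the gene lists and the markers were chosen with earlier results of these data known. Some of these genes, though counted, are not reported here. Alternatives are given in the closing section.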

Additional observations from a re-analysis of the deposited data

Results flagged for a closer look

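In 4 members the difference from MEF differed at least 2-fold between iNSC and NSC arrays, at adjusted p under 0.05. The limma test was that of iNSC minus NSC itself, in which MEF cancels. With no fold minimum 4 members were higher and 5 lower, against 15.9% and 19.9% of all probe sets. Foxd1 differed by -4.53 (adjusted p = 4.42e-14), with 6 of 6 iNSC arrays below all NSC arrays. Foxo4 differed by -2.19 (adjusted p = 4e-12), Foxc2 by 2.04 (adjusted p = 3.22e-10) and Foxp4 by 1.73 (adjusted p = 2.13e-11), again with no overlap between iNSC and NSC arrays. Among all probe sets tested, 2.76% were called higher and 3.90% lower in this comparison. With 3 arrays a group, single stray arrays were not looked for.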

How the results depend on the processing

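Of 284 counts of called members recomputed under an alternative, 263 were within 1.5 times the reported count and 21 were not. None of 1310 alternative values of named members in the 4 main comparisons lost a 2-fold call or reversed. Only 19 of the 76 differences behind these values were called, so the others had no call to lose. The looser fold minimums cannot lose a call either. A probe set that an alternative drops gives no value there. With 1 probe set per gene, Foxf1 is represented by the probe set that was not called (10576046), so lower calls were 4 in iNSC minus MEF and 5 each in NSC, iNSC1 and iNSC2 minus MEF. With no fold minimum, iNSC minus MEF gave 8 higher and 10 lower, iNSC minus NSC 4 and 5, and NSC minus MEF 6 and 10; iNSC1 minus MEF gave 10 higher, iNSC2 minus MEF 7 higher and 11 lower, iNSC1 minus NSC 4 and 6, and iNSC2 minus NSC 5 and 5. At 1.5-fold, iNSC minus MEF gave 4 higher and 8 lower, and NSC, iNSC1 and iNSC2 minus MEF 4 higher each. Keeping probe sets with a highest group mean of at least 6 left 3 lower in iNSC, NSC and iNSC2 minus MEF, because the filter removes members. Without Foxd1 and Foxo4 (chosen after seeing the data) the distances were 0.73 (iNSC and MEF), 0.50 (iNSC and NSC) and 0.82 (NSC and MEF).

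Leaving out 1 array at a time, lower calls ranged from 5 to 7 in iNSC minus MEF, 6 to 7 in iNSC1 minus MEF and 5 to 6 in iNSC2 minus MEF, and higher calls in iNSC2 minus MEF from 2 to 3. All other counts stayed at 0, 2 or 6 as reported. Distances ranged from 0.76 to 0.78 (iNSC and MEF), 0.86 to 0.91 (iNSC and NSC), 1.17 to 1.21 (NSC and MEF) and 0.22 to 0.24 (iNSC1 and iNSC2). In iNSC minus MEF, Foxs1 passed 2-fold with array weights (-1.01) and without iNSC1 replicate 3, iNSC2 replicate 3, MEF replicate 1 or MEF replicate 3. A Foxo3 probe set (10368886) did so with array weights, with the block (-1.02) and without iNSC1 replicate 3, iNSC2 replicate 1 or MEF replicate 5 (down to -1.05). Whether arrays were paired by replicate number could not be settled. Of 15 same-numbered pairs, 6 correlated above 0.1 (range -0.18 to 0.30). The replicate 1 arrays correlated with each other at 0.043 to 0.269. MEF replicate 5 shares its number with no other array, and correlated at 0.308, 0.28 and -0.05 with replicate 3 of iNSC2, NSC and iNSC1. With the replicate number as a block, lower calls were 6 instead of 5 in iNSC minus MEF and 5 instead of 6 in iNSC2 minus MEF, and no other count moved; under the block, limma adjusted p rose above 0.05 for Foxk2 (0.0546) and Foxj2 (0.11) in iNSC minus MEF and fell below it for Foxf2 in iNSC minus NSC (0.0107) and Foxo3 (10368886) in NSC minus MEF (0.0281). Over all alternatives other than the fold minimum, 10 of 76 differences of named members crossed an adjusted p of 0.05 at least once. Many members read low, where the arrays give no detection call, so small differences there cannot be resolved.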
